A study of Mus musculus with 12 samples.

Results

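The heat shock protein and chaperone genes described here are the rows of the deposited count table whose symbol belongs to the Hsp, Dnaj, Bag, Cct or Hsf families and whose mean raw count over the 12 mice was 10 or more. Of 24985 genes in the table, 94 had such a symbol and 80 reached that level. Hspb3, with a mean count of 11.3, lay just above the limit and Dnajb13, with 9.42, just below it. Among the 14 genes under the limit, Dnajb7, Dnajb8 and Dnajc5g had no count in any mouse. The members were divided by symbol into 3 HSP90, 3 HSP110, 10 HSP70, 5 small heat shock protein, 2 mitochondrial chaperonin, 7 CCT, 4 DNAJA, 10 DNAJB, 25 DNAJC, 6 BAG, 3 HSF and 2 HSP-binding genes.

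RNA was sequenced from the dorsal hippocampus of 12 wild type C57Bl6/J mice, 3 per group. All were 6 months old when PBS or 1 µg of AD tau, the sarkosyl-insoluble tau of human Alzheimer's disease brain, was injected into the right dorsal hippocampus, and all were harvested 6 months later, 24 hours after a test of remote fear memory. From the injection on they ate either control chow or chow of equal calories with 5% acetate, which gives the groups PBS control and PBS acetate, and likewise Tau control and Tau acetate. Each library was made from 300 ng of RNA of 1-mm tissue slices that held CA1, CA2, CA3 and the dentate gyrus, so the values are averages over all cell types of the slice. Granule cell markers of the dentate gyrus (644 to 1018 CPM summed), CA1 markers (457 to 951) and CA3 markers (256 to 618) were present in every library, as the tissue label has it. Totals were 12983233 to 20218340 counts per mouse. The animals were labelled male, but all 12 libraries held 13583 to 25991 counts of Xist and 0 counts of Ddx3y, Uty, Kdm5d and Eif2s3y together, so the sex on the labels does not match the RNA in any group.

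Chaperones hold unfolded or newly made proteins until they fold. HSP70 proteins do this in ATP-driven cycles that DNAJ proteins start and that HSP110 and BAG proteins end by exchanging the nucleotide, HSP90 takes over late folding of kinases and receptors, and the CCT ring folds actin and tubulin. The transcription factor HSF1 raises the cytosolic set when unfolded proteins accumulate, through heat shock elements in their promoters, while the unfolded protein response of the endoplasmic reticulum (ER) raises Hspa5 (BiP), Hsp90b1 (GRP94) and Dnajc3 through ER stress elements. In neurons, Hspa8 with the auxilin Dnajc6 strips clathrin from synaptic vesicles, and HSP70, HSP90 and their partners bind tau.

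Promoters are shown for the 3 members with an ER stress element, and for the members Hspd1 and Hsph1 with a heat shock element. The first 3 were called lower on acetate in PBS-injected mice, as were 16.2% of the members and 4.85% of all genes. Hsph1 was called there and Hspd1 was not. Of 12 fits that each left out 1 mouse, Dnajc3 passed in 3, Hspa5 in 6 and Hsp90b1 in 11. Whether the elements have a part in these levels was not tested. RefSeq promoter sequences (GRCm38.p6) were at hand for 65 of the 80 members, and each window ran from 250 bases before to 50 bases after the annotated start. An ER stress element (CCAAT, a gap of 9 bases, then CCACG, on either strand) was found in 3 members, Hspa5, Hsp90b1 and Dnajc3, or 4.62% of the members with a promoter, against 0.137% of all 27025 genes in the promoter table. The 250 bases before the start of each are given 5′ to 3′ on the strand of the gene, with the elements in capitals. They lie at chr2:34771840-34772089 (plus strand), chr10:86705445-86705694 (minus strand) and chr14:118937682-118937931 (plus strand), and Hsp90b1 has 2 elements, one on each strand.
Hspa5: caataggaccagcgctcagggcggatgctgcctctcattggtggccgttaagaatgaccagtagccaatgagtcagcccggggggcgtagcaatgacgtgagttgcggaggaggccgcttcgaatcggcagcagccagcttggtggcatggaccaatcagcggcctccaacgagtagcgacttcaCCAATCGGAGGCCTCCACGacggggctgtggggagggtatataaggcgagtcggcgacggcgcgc
Hsp90b1: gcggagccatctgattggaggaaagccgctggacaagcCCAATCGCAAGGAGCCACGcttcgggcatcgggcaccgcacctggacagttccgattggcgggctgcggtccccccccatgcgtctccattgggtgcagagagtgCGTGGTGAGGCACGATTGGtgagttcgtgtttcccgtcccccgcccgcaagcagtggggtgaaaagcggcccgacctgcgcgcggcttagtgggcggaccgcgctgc
Dnajc3: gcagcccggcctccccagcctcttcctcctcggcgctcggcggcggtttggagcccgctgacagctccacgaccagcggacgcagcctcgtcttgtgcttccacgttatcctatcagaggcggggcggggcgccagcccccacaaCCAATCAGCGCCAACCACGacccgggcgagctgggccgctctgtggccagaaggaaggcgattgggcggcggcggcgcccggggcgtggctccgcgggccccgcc

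A heat shock element (GAA, TTC and GAA, each 2 bases apart, on either strand) was found in Hspd1, Hspe1, Dnajb6 and Hsph1, or 6.15% of the members with a promoter, against 0.662% of all genes. Of the 11 members called lower on acetate in PBS-injected mice that have a promoter in the table, 1 holds it, Hsph1. Hspd1 and Hspe1, the ring and the lid of the mitochondrial chaperonin, lie back to back and share 1 region with 2 overlapping elements, shown in capitals on the Hspd1 strand at chr1:55087933-55088182 (minus strand). The other annotated Hspd1 promoter, at chr1:55088244-55088493, holds no heat shock element. The element of Hsph1 starts past the annotated start and is given with 30 bases in all at chr5:149636279-149636308 (minus strand). An E-box (CACGTG), the site of clock factors, was in 12.3% of the members with a promoter and in 8.09% of all genes. In no member did a heat shock element overlap an ER stress element. Windows of Hsp90aa1, Hspa8 and Hsp90ab1 were not analysed here, and a window without these letters says nothing of the factor.
Hspd1: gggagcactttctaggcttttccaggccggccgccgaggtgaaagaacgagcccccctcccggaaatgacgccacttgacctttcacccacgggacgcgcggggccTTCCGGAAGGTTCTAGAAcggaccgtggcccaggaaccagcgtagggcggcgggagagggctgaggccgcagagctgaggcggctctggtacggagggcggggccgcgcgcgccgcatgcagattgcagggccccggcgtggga
Hsph1: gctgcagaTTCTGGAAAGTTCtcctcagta

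Per kilobase of exon, Hsp90ab1, the constitutive cytosolic HSP90, was the highest member by far, at 671 ± 35.2 CPM per kb (SD, n = 3) in PBS control mice, where CPM is the count scaled to library size after TMM normalization. Hspa8, the constitutive HSP70, followed at 129 ± 1.95, then Hsp90aa1 at 110 ± 5.47 and Hsp90b1 at 98.3 ± 0.911. Further down, Dnajc6 (68.4 ± 2.63), Hspa5 (68.2 ± 3.65) and the CCT subunits Cct5 (66.7 ± 3.46) and Cct2 (65.3 ± 1.68) each differed from the next by less than their spread. The inducible HSP70 genes were low, with Hspa1b at 4.41 ± 0.462 and Hspa1a at 2.79 ± 0.176 CPM per kb. Of their 50-base words 62.3% and 60.3% also occur in other genes, so both levels, and their ranks, may be too low. The small heat shock protein Hspb1 was lower still, at 1.01 ± 0.298, with 48.8% of its 50-base words also found in other genes. Hspa1b, Hspa1a and Hspb1 thus sat at ranks 65, 69 and 77 of the 80 members over all mice, whereas the stress-responsive Hsp90aa1 and Hsp90b1 were at ranks 3 and 4. The spread between mice was modest, with a median biological coefficient of variation of 5.78% over the members against 7.38% over all genes tested.

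The 80 members together took 10039, 10299 and 10450 CPM in the PBS control mice and 9276, 9558 and 9618 in the PBS acetate mice. They took 10005, 10188 and 10230 CPM in the Tau control mice and 9445, 9562 and 9890 in the Tau acetate mice. By this sum, to which the most abundant genes contribute most, every acetate-fed mouse was below every mouse on control chow in both injection groups. With each gene given equal weight, as the mean log2 CPM around each gene's mean, the diets stayed apart in PBS-injected mice but overlapped in tau-injected mice, where Tau acetate mouse 2 (0.0038) lay above Tau control mouse 2 (-0.0085). With tissue of this kind, fewer cells of a type and less RNA per cell cannot be told apart. The summed level of 6 neuron markers was 6727 to 7346 CPM in PBS control against 5753 to 6565 in PBS acetate mice, and 6764 to 6880 in Tau control against 5741 to 6373 in Tau acetate mice. In PBS-injected mice 2 of these 6 markers passed the test as lower, against 4.85% of all genes: Snap25 (log2 fold change -0.40) and Slc17a7 (-0.22). Of the other 4, which did not pass, Syt1 was at -0.14, and Rbfox3 (0.02), Gad1 (0.14) and Gad2 (0.11) had positive values, so 3 of 6 were positive and the median was -0.06. With equal weight per gene the neuron markers overlapped between the diets in PBS-injected mice (PBS acetate mouse 3 at 0.0199, PBS control mouse 2 at -0.0012). Their part in the chaperone result was not tested.

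The first comparison asks what acetate does in the absence of tau. In PBS-injected mice 13 of the 80 members (16.2%) were lower on acetate at an adjusted p below 0.1 and 0 were higher, by the quasi-likelihood F test of edgeR, Benjamini-Hochberg adjusted over all 14742 genes. Over all genes, 4.85% were called lower and 3.99% higher. Without adjustment, 22 members (27.5%) were lower and 1 (1.25%) higher at p below 0.05, against 10.8% and 9.96% of all genes. The call reached the cytosolic machinery (Hspa8, Hspa1b, Hsp90aa1, Hsph1, Hspa4, Dnaja1, Dnaja4, Dnajb2, Cct6a), the ER (Hspa5, Hsp90b1, Dnajc3) and the synaptic vesicle cycle (Dnajc6). The calls depended on 1 library, over all genes as well as over the members: without PBS acetate mouse 2, 0 of the 13 passed, with adjusted p of 0.106 for Dnajc6 and 0.109 for Hsph1, and 0.101% of all genes were called in either direction. Left out in turn, each of the other 11 mice gave 6 to 14 members, with 1.66% to 9.55% of all genes called. The 13 calls were not equally firm. Of the 12 fits without 1 mouse, Dnajb2 and Hspa4 passed in 2, Dnajc3 in 3, Dnaja4 in 5 and Hspa5 in 6. Cct6a passed in 7 and Hspa1b in 8, and Dnaja1, Dnajc6, Hsp90aa1, Hsp90b1, Hspa8 and Hsph1 in 11. The plot of CPM by mouse shows the 9 members with the smallest p.

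**Figure D1:**
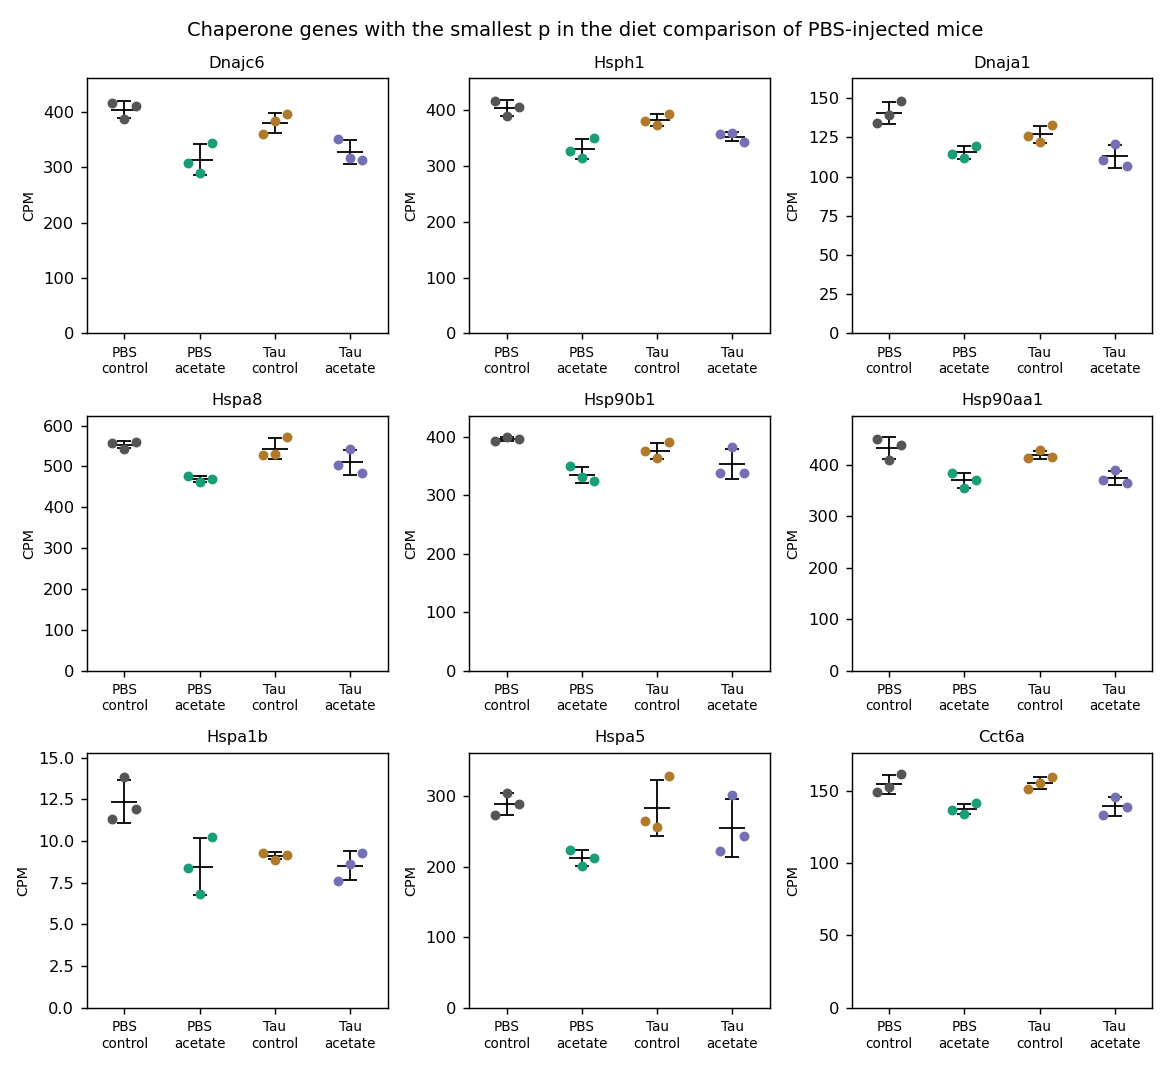
CPM (vertical axes, from 0) of the 9 chaperone genes with the smallest p for diet in PBS-injected mice; each point is 1 mouse, the horizontal tick its group mean and the bar ± 1 SD (n = 3). In every panel the 3 PBS acetate mice lie below the 3 PBS control mice, and for Dnajc6, Hsph1, Dnaja1, Hsp90aa1 and Cct6a the Tau acetate mice also lie below the Tau control mice.

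Dnajc6, auxilin, recruits HSP70 to clathrin-coated vesicles (chr4:101496648-101642799, GRCm38, plus strand). Its level was 415, 386 and 411 CPM in PBS control and 308, 290 and 345 CPM in PBS acetate mice. In the tau-injected mice it was 360, 384 and 396 CPM on control chow and 352, 317 and 313 CPM on acetate. The acetate-fed mice were the lower ones in both, with no overlap. The log2 fold change was -0.36 ± 0.06 (SE) in PBS-injected mice (edgeR adjusted p = 0.0116) and -0.21 ± 0.06 in tau-injected mice, where DESeq2 called it as the only member (edgeR adjusted p = 0.247).

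The HSP110 genes encode nucleotide exchange factors of HSP70, and Hsph1 and Hspa4 passed the test. Hsph1 (chr5:149614287-149636376, minus strand) counted 417, 389 and 407 CPM in PBS control and 328, 315 and 351 CPM in PBS acetate mice, a log2 fold change of -0.29 ± 0.05 (edgeR adjusted p = 0.0116). Tau-injected mice had 382, 373 and 394 CPM on control chow and 357, 359 and 343 CPM on acetate. The diets were apart in both injection groups, though the difference in tau-injected mice, -0.12 ± 0.05, was not called. Hspa4 was 325 ± 16.7 CPM in PBS control and 293 ± 4.29 in PBS acetate mice (-0.15 ± 0.05, adjusted p = 0.096), and 327 ± 11.4 and 298 ± 11.3 in the tau-injected mice. Hspa4l, at -0.19, narrowly missed the threshold (adjusted p = 0.103 by edgeR).

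Among HSP70 genes, 3 of 10 were called. Hspa8 stood at 558, 544 and 559 CPM in PBS control and 477, 461 and 471 CPM in PBS acetate mice, a log2 fold change of -0.24 ± 0.05 (edgeR adjusted p = 0.0228). Its levels overlapped in the tau-injected mice, with 528, 530 and 573 CPM on control chow and 504, 543 and 484 CPM on acetate. Of its 50-base words, 38.6% occur in other genes, mainly Gm15459. Hspa5, the HSP70 of the ER, stood at 273, 304 and 288 CPM in PBS control and 224, 201 and 212 CPM in PBS acetate mice (-0.44 ± 0.12, adjusted p = 0.0623). In tau-injected mice Hspa5 varied more, with 265, 256 and 328 CPM on control chow and 222, 301 and 243 CPM on acetate. The inducible Hspa1b had the largest log2 fold change of the called members, -0.55 ± 0.14 (adjusted p = 0.0415), at 12.4 ± 1.29 CPM in PBS control and 8.47 ± 1.71 in PBS acetate mice, with 9.12 ± 0.211 and 8.52 ± 0.873 in tau-injected mice. Its neighbour Hspa1a shares much of its sequence: 62.3% of the 50-base words of Hspa1b and 60.3% of those of Hspa1a also occur in other genes, mainly in each other, and their promoters agree in 296 of 300 bases. The split of reads between Hspa1a and Hspa1b is therefore uncertain; Hspa1a itself gave -0.44 (adjusted p = 0.189) with no overlap between the diets in PBS-injected mice (8.29 ± 0.521 and 6.09 ± 0.835 CPM), and 7.36 ± 2.27 and 6.72 ± 0.808 CPM in tau-injected mice. Hspa9, the mitochondrial HSP70, was 242 ± 5.67 CPM in PBS control and 245 ± 12.6 in PBS acetate mice (241 ± 6.15 and 240 ± 4.23 in tau-injected mice), and Hspa2 and Hspa14 gave log2 fold changes of 0.01 and 0.04.

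The HSP90 genes were called in 2 of 3 cases. Hsp90aa1, the stress-responsive cytosolic form, read 451, 409 and 439 CPM in PBS control and 385, 355 and 372 CPM in PBS acetate mice (log2 fold change -0.23 ± 0.05, edgeR adjusted p = 0.0251). In tau-injected mice it read 414, 428 and 416 CPM on control chow and 371, 391 and 365 CPM on acetate (-0.16 ± 0.05, adjusted p = 0.276). Neither pair overlapped. Of its 50-base words, 47.5% also occur in other genes, mostly in the copy Gm12346. Hsp90b1, the ER form, fell by 0.24 on the log2 scale (adjusted p = 0.0251), from 396 ± 3.67 to 335 ± 13.8 CPM, and in tau-injected mice stood at 376 ± 13.6 and 353 ± 25.6 CPM. Hsp90ab1 did not pass, at 2072, 1889 and 2071 CPM in PBS control and 1930, 1792 and 1911 CPM in PBS acetate mice (-0.10 ± 0.05, adjusted p = 0.281).

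All 4 DNAJA genes, the type I co-chaperones that hand substrates to HSP70, had negative log2 fold changes in both injection groups. Dnaja1 was 134, 140 and 148 CPM in PBS control and 115, 112 and 120 CPM in PBS acetate mice (-0.29 ± 0.06, edgeR adjusted p = 0.0192). On the tau background it was 126, 122 and 133 CPM on control chow and 111, 121 and 107 CPM on acetate, again without overlap (-0.17 ± 0.06, adjusted p = 0.296). Dnaja4 was also called in PBS-injected mice (-0.20, adjusted p = 0.0866), and Dnaja2, the DNAJA gene with the highest CPM, was not (-0.14, adjusted p = 0.141). Among DNAJB and DNAJC genes the changes were mixed. Of 25 DNAJC genes, 13 were negative and 12 positive in PBS-injected mice, and apart from Dnajc6 only Dnajc3, the ER-resident co-chaperone of Hspa5, was called (-0.27, adjusted p = 0.0969). Dnajc5, the cysteine string protein of synaptic vesicles, was 383 ± 7.74 and 363 ± 11.7 CPM in PBS-injected and 391 ± 5.02 and 372 ± 3.24 CPM in tau-injected mice on control chow and acetate, with no overlap in either and no call (adjusted p = 0.328 and 0.577). Dnajb1, the main stress-induced partner of HSP70, was 46.4 ± 1.18 and 41.8 ± 0.803 CPM in PBS-injected mice (-0.15, adjusted p = 0.215), and Dnajb6, an inhibitor of aggregation, 30.3 ± 4.39 and 28.7 ± 0.662 CPM. In tau-injected mice these were 48.1 ± 1.13 and 46.1 ± 4.28 CPM for Dnajb1 and 28.0 ± 2.14 and 26.8 ± 1.13 CPM for Dnajb6.

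Every one of the 7 CCT genes had a negative log2 fold change in PBS-injected mice, from -0.17 to -0.04, and 6 of 7 in tau-injected mice. Cct6a was the called subunit (-0.17 ± 0.05, edgeR adjusted p = 0.0736), with 149, 153 and 162 CPM in PBS control and 137, 134 and 142 CPM in PBS acetate mice. The difference was of like size in tau-injected mice, where 151, 155 and 160 CPM on control chow stood against 133, 146 and 139 CPM on acetate (-0.16 ± 0.05, adjusted p = 0.286). Cct7, the subunit with the highest CPM, was 189 ± 11.3 and 181 ± 7.35 CPM in PBS-injected mice (-0.07, adjusted p = 0.506). Cct2 was 167 ± 4.30, 162 ± 2.30, 166 ± 3.02 and 156 ± 4.85 CPM and Cct5 184 ± 9.56, 179 ± 10.3, 183 ± 5.02 and 182 ± 8.62 CPM in the PBS-injected and then the tau-injected mice, control chow first. Hspd1, the mitochondrial chaperonin ring, was 116 ± 5.91 and 106 ± 4.49 CPM in PBS-injected mice and 118 ± 0.901 and 106 ± 3.39 CPM in tau-injected mice (-0.12 and -0.16, uncalled); 39.7% of its 50-base words occur in other genes. Its lid Hspe1 was 28.7 ± 1.55, 26.9 ± 1.62, 24.99 ± 0.633 and 24.8 ± 1.43 CPM in the same order.

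Several classes gave no called member. The heat shock factors were not called in any comparison. Hsf1 was 35.9 ± 1.59 CPM in PBS control, 35.4 ± 2.06 in PBS acetate, 36.9 ± 3.497 in Tau control and 36.9 ± 4.82 in Tau acetate mice. Hsf2 was 27.8 ± 0.606, 27.9 ± 1.76, 28.5 ± 1.91 and 24.4 ± 0.913 CPM in the same order, the Tau acetate mice being the lowest 3 of 12 (-0.23 against Tau control, edgeR adjusted p = 0.297). In the small heat shock protein class, which was set by symbol and not by function, Hspb8 was 11.8 ± 1.67, 12.4 ± 0.600, 12.8 ± 1.95 and 14.2 ± 0.602 CPM. Hspb11, with the smallest p of the class, differed by -0.29 between Tau control and PBS control (edgeR adjusted p = 0.626). Bag1 was 85.4 ± 3.27, 83.7 ± 3.39, 80.9 ± 7.19 and 79.7 ± 4.62 CPM, and Bag6 226 ± 4.40, 232 ± 8.78, 228 ± 6.54 and 235 ± 6.60 CPM. Bag5 was 53.3 ± 2.05, 58.0 ± 0.820, 53.4 ± 3.48 and 58.3 ± 4.16 CPM (0.13 higher on acetate in each injection group, uncalled). Hspbp1, an HSP70-binding exchange factor, was 60.1 ± 0.920, 60.4 ± 3.34, 59.1 ± 2.68 and 57.4 ± 3.90 CPM.

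**Figure D2:**
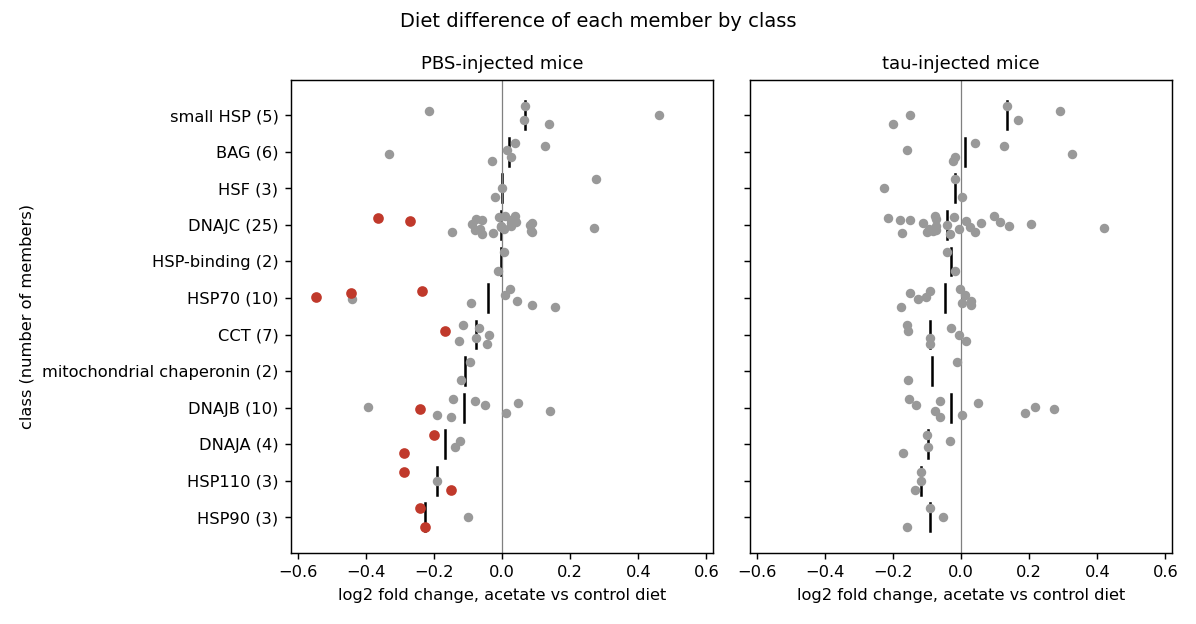
Log2 fold change of acetate against control diet (horizontal axes) for each member, grouped by class (vertical axis, with the number of members), in PBS-injected mice on the left and tau-injected mice on the right. Red points passed an adjusted p below 0.1 and black ticks are class medians; HSP90, HSP110, DNAJA and the mitochondrial chaperonin have negative values only, in both panels.

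The same diet comparison in tau-injected mice called 0 of 80 members, by edgeR's quasi-likelihood test, where 0.0611% of all genes were called. At an unadjusted p below 0.05, 14 members (17.5%) were lower and 4 higher, against 5.41% and 5.47% of all genes. DESeq2 called 1 of the 60 members it tested. Over all 24985 genes in the table, tested or not, it called 175 (0.7%), so the 2 shares have unlike bases. The 2 diet comparisons share no mouse, so the values can be set side by side. Of the 13 members called in PBS-injected mice, 11 (84.6%) were also negative in tau-injected mice; their median log2 fold changes were -0.24 and -0.12. Of all 715 genes called lower in PBS-injected mice, 68.1% were negative in tau-injected mice, with medians of -0.30 and -0.07. The exceptions among the members were Dnajb2 and Dnajc3. Over all 80 members the median was -0.05 in both, with 49 negative in PBS-injected and 54 in tau-injected mice, and over all genes it was 0.00 in both. The scatter of the diet differences shows most called members low on both axes.

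**Figure D3:**
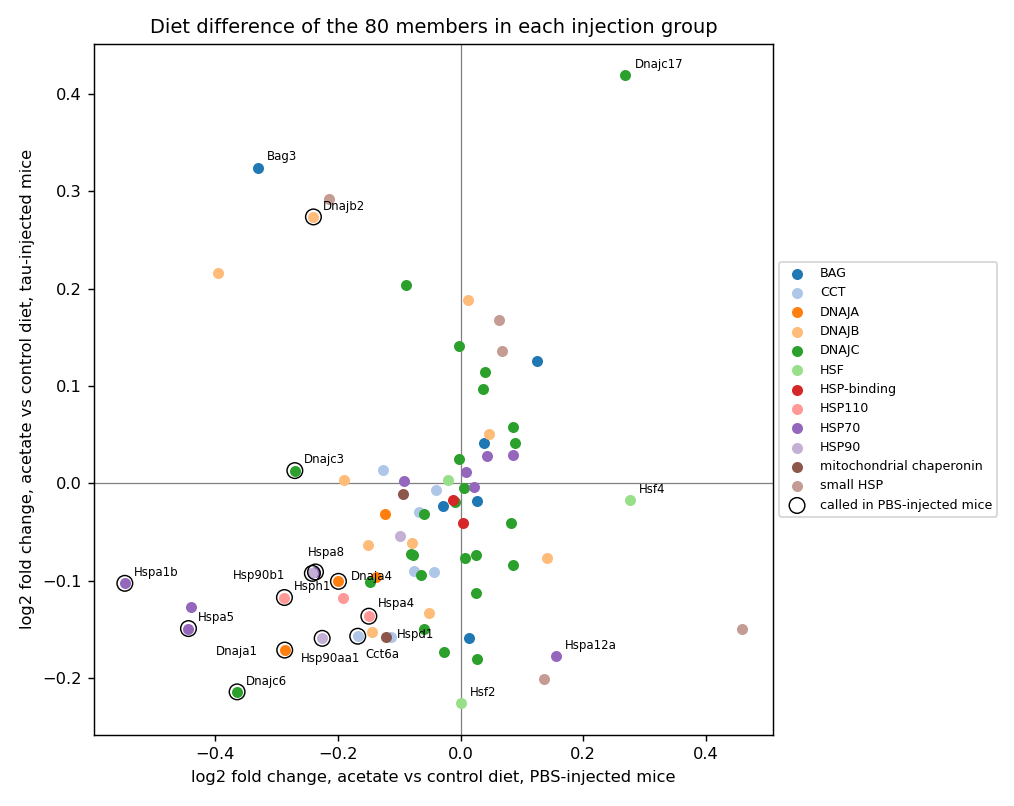
Log2 fold change, acetate against control diet, among PBS-injected (horizontal axis) and tau-injected mice (vertical axis), 1 point per member, coloured by class, with circles around the 13 members called in PBS-injected mice. Of these, 11 lie below 0 on both axes, while Dnajb2 and Dnajc3 lie above 0 in tau-injected mice.

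Counting mice without overlap gave a like picture. In PBS-injected mice the diets did not overlap for 23 members in the lower direction (28.7%, against 13.2% of all genes) and 6 in the higher (7.5%, against 13.1%). In tau-injected mice this was so for 18 lower (22.5%, against 7.77%) and 3 higher (3.75%, against 6.66%). An average of both diet effects, 6 mice against 6, was added after the data were seen. It called 15 members lower (18.8%, against 3.81% of all genes) and 0 higher (against 1.95%), namely Dnajc6 (-0.29), Hsph1 (-0.20), Dnaja1 (-0.23), Hsp90aa1 (-0.19), Hspa8 (-0.16), Cct6a (-0.16), Hsp90b1 (-0.17), Hspa4 (-0.14), Hspd1 (-0.14), Cct8 (-0.14), Hspa4l (-0.15), Dnaja4 (-0.15), Hspa5 (-0.30), Hspa1b (-0.33) and Dnaja2 (-0.12). Dnaja1, Dnajc6, Hsp90aa1, Hspa8 and Hsph1 passed whichever mouse was left out. Of the 12 fits without 1 mouse, Hspa1b passed in 1, Hspa5 in 2, and Dnaja2, Dnaja4 and Hspa4l in 3 each. The number called was 5 without PBS acetate mouse 2, 6 without Tau acetate mouse 3 and 7 without PBS control mouse 3. In these fits 1.48%, 2.02% and 2.3% of all genes were called in either direction. For 6 members, Dnajc6, Hsph1, Dnaja1, Hsp90aa1, Cct6a and Dnajc5, all 6 acetate-fed mice were below all 6 mice on control chow (7.5%, against 1.45% of all genes), and 0 members lay above them (against 0.414%).

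No member passed the test for tau. On control chow 0 of 80 differed between Tau control and PBS control mice by edgeR, where 0.0136% of all genes were called, and 4 members (5%) were lower and 3 (3.75%) higher at an unadjusted p below 0.05, against 4.84% and 4.81% of all genes. Among the members Dnajb2 had the smallest p (-0.26, edgeR adjusted p = 0.341). The injections did not overlap for 9 lower (11.2%) and 5 higher (6.25%) members, against 6.84% and 6.61% of all genes. On acetate, again 0 were called (0.136% of all genes), with 2 (2.5%) lower and 6 (7.5%) higher at an unadjusted p below 0.05, against 4.83% and 5.5% of all genes. Bag3 had the smallest p (0.49, edgeR adjusted p = 0.177). Here 6 members (7.5%) were lower and 7 (8.75%) higher without overlap, against 8.71% and 7.51% of all genes. DESeq2 called 0 in both, against 0.344% and 0.448% of all 24985 genes in the table, tested or not. Medians over the members were 0.00 and 0.01 on the log2 scale.

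The difference between the diet effects was called for 1 member, Dnajb2 (1.25%, against 1.11% of all genes called in that direction and 1.56% in either). Dnajb2 encodes a neuronal co-chaperone that leads ubiquitinated proteins to the proteasome (chr1:75236406-75245692, plus strand). It stood at 91.3, 93.3 and 81.5 CPM in PBS control and 85.6, 71.8 and 68.0 CPM in PBS acetate mice, which overlap. In tau-injected mice it stood at 73.5, 74.0 and 74.2 CPM on control chow and 93.4, 93.2 and 81.2 CPM on acetate, which do not. The diet effect in tau-injected mice exceeded that in PBS-injected mice by 0.51 ± 0.11 (edgeR adjusted p = 0.056), with -0.24 in one and 0.27 in the other; the call was lost without any one of 5 mice, PBS control 2, PBS acetate 2, Tau control 1, Tau control 2 and Tau acetate 1, with adjusted p up to 0.173. Bag3, which pairs HSP70 with autophagy, followed the same course with 12.7 ± 1.22, 10.1 ± 0.216, 11.4 ± 1.87 and 14.2 ± 1.86 CPM in PBS control, PBS acetate and the matching tau-injected groups, and missed the threshold (0.66 ± 0.18, adjusted p = 0.117; called by DESeq2). Hspa12a, a distant HSP70 relative, ran the other way, at 312 ± 12.3, 347 ± 19.9, 372 ± 57.1 and 330 ± 21.9 CPM (-0.33, adjusted p = 0.269).

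Marker lists of several cell kinds had median diet differences with the same signs as Dnajb2 and Bag3, negative in PBS-injected and positive in tau-injected mice. The medians were small for astrocyte markers (-0.05 and 0.06) and endothelial markers (-0.03 and 0.11). They were larger for the 2 kinds that follow. The summed level of the markers of myelinating oligodendrocytes was 7287 to 9410 CPM in PBS control, 4580 to 6309 in PBS acetate, 4838 to 5860 in Tau control and 5534 to 8878 in Tau acetate mice. All 8 had a positive difference between the diet effects (median 1.07), though 0 of 8 passed. Cldn11 and Mobp passed as lower on acetate in PBS-injected mice, where 4.85% of all genes did. Of 6 choroid plexus and ependymal markers, 3 passed for the difference between the diet effects (Foxj1, Tmem212 and Folr1, list median 1.94), against 1.11% of all genes in that direction. The same 3 passed as lower on acetate in PBS-injected mice (median -1.16). Their summed level was 101 to 134 CPM in PBS control, 72.2 to 86.6 in PBS acetate, 100.1 to 201 in Tau control and 88.6 to 481 in Tau acetate mice. Tau acetate mouse 3 stood apart at 481. Mouse 1 of that group, at 100.6, was just above the lowest Tau control mouse (100.1), and mouse 2, at 88.6, was below all 3. By sum, only mouse 3 was above every Tau control mouse. With equal weight per gene, mice 1 (0.35) and 3 (1.38) were above all Tau control mice (-0.16 to 0.06) and mouse 2 (-0.30) below them. The α-crystallin Cryab, a small heat shock protein that the symbol rule does not take in, fell by 0.69 in PBS-injected mice (edgeR adjusted p = 0.0767) and was 0.34 higher on acetate in tau-injected mice (adjusted p = 0.564). Its level was 99.7 ± 11.4, 62.1 ± 9.88, 69.7 ± 6.70 and 87.8 ± 21.1 CPM in the 4 groups. The part of any of these kinds of cell in the values of Dnajb2 and Bag3 was not tested.

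**Figure D4:**
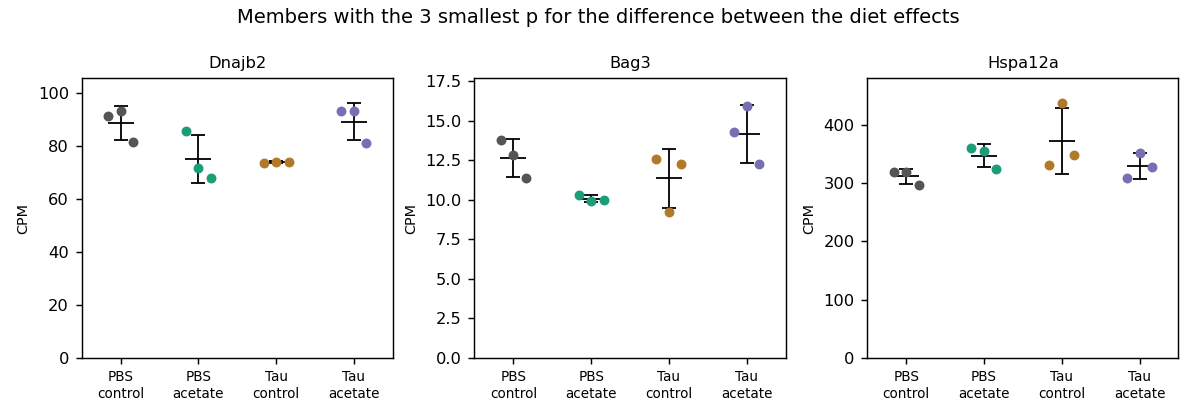
CPM (vertical axes, from 0) of the 3 members with the smallest p for the difference between the diet effects; points are mice, ticks group means and bars ± 1 SD (n = 3). Dnajb2 and Bag3 were lower on acetate than on control chow in PBS-injected mice by group mean and higher in tau-injected mice, and Hspa12a the reverse.

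Lists of related genes were chosen by function with earlier results of these data known, and 2 of them hold members. Of 22 genes driven by HSF1, 15 of them members, 9 were lower and 0 higher on acetate in PBS-injected mice by edgeR (median log2 fold change -0.23). Over all genes 4.85% were called lower and 3.99% higher. The calls of Hspa1b, Hspa8, Hsph1, Dnaja1 and Hsp90aa1 repeat those above, and the list median and level include the members. Outside the members the calls were Cryab, Chordc1 (-0.36, adjusted p = 0.0158), Cacybp (-0.26, adjusted p = 0.0457) and Ahsa2 (-0.23, adjusted p = 0.0896), of which the last 3 serve HSP90 or its clients. In tau-injected mice 0 of 22 passed and the median was -0.12. The mean list level, as log2 CPM around each gene's mean, was 0.12, 0.09 and 0.12 in PBS control and -0.10, -0.16 and -0.08 in PBS acetate mice, with Tau control at 0.03, -0.01 and 0.09 and Tau acetate at -0.10, 0.05 and -0.04. The PBS-injected mice were fully apart by diet, and Tau acetate mouse 2 lay among the mice on control chow.

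For ER folding and ER stress, 22 of 23 listed genes were tested (Trib3 was too low), 7 of them members. On acetate 8 were lower and 0 higher in PBS-injected mice (median -0.21): the members Hspa5, Hsp90b1 and Dnajc3, the disulfide isomerases Pdia4 (-0.45, edgeR adjusted p = 0.0103) and Pdia3 (-0.28, adjusted p = 0.0243), the lectin chaperones Calr (-0.23, adjusted p = 0.0349) and Canx (-0.15, adjusted p = 0.0835), and Manf (-0.34, adjusted p = 0.0692). Pdia4 fell from 46.7 ± 1.96 to 34.2 ± 0.298 CPM. In tau-injected mice 0 of 22 passed (median -0.08). Of 20 HSP90 and HSP70 co-chaperones without such a symbol, 4 were lower and 0 higher in PBS-injected mice (median -0.06, with 9 of 20 positive). The calls of Chordc1, Cacybp and Ahsa2 repeat those of the HSF1 list. The other was Ptges3, the p23 of the HSP90 cycle, at -0.24. Ptges3 gave -0.27 in tau-injected mice (adjusted p = 0.192). Prefoldin and CCT partners had 1 of 11 lower (Vbp1, -0.25), and mitochondrial chaperones and proteases 1 of 13 higher (Spg7, 0.22). With 4.85% of all genes called lower and 3.99% higher, 1 call in lists this small says little of either list.

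Other lists moved in the PBS-injected mice alongside, where 3.99% of all genes were called higher and 4.85% lower on acetate. Both RNA-binding proteins that cold induces were higher on acetate, Cirbp (0.61, edgeR adjusted p = 0.0536; 43.7 to 53.7 CPM in PBS control and 71.9 to 83.7 in PBS acetate mice) and Rbm3 (0.32, adjusted p = 0.08; 24.0 ± 1.72 and 29.9 ± 2.58 CPM), with 0.18 and 0.10 in tau-injected mice. Of 16 clock genes 9 were higher and 0 lower (median 0.26; Per1 0.58 and Bhlhe40 0.61 had the smallest adjusted p, 0.00448 each), whereas 0 of 14 immediate early genes passed. Regional markers differed too, with 4 of 6 CA1 markers higher (median 0.64) and 4 of 7 CA3 markers lower (median -0.85) on acetate. The summed CA3 level was 568 to 618 CPM in PBS control, 256 to 423 in PBS acetate, 353 to 480 in Tau control and 289 to 451 in Tau acetate mice, so the PBS-injected groups did not overlap and the tau-injected ones did. The part of region, clock and temperature-related genes in the lower chaperone levels was not tested.

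**Figure D5:**
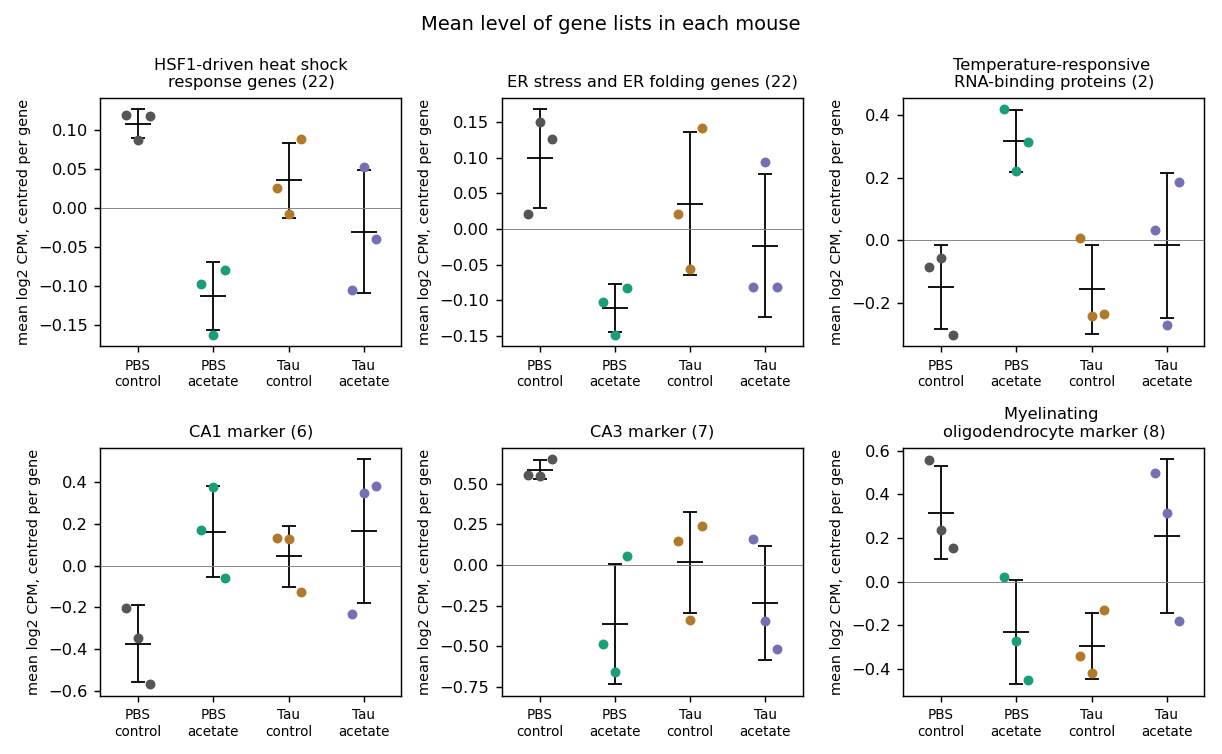
Mean log2 CPM of 6 gene lists in each mouse, with each gene centred on its mean over the 12 mice (vertical axes; number of genes in brackets); points are mice, ticks group means and bars ± 1 SD (n = 3). The heat shock and ER lists were lower in the 3 PBS acetate than in the 3 PBS control mice, as were the CA3 markers, while Cirbp and Rbm3 together were higher.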

How the data were processed

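Per the labels and the methods of the study, poly(A) RNA of 12 mice (3 per group) was sequenced, and the authors aligned reads with STAR 2.5.2a to GRCm38 and counted them per gene on the reverse strand of exons with HTSeq 0.9.1. The deposited values are raw counts, not normalized, 1 column per mouse, which total 12983233 to 20218340 per mouse. Reads shared by near-identical genes are not resolved by such counting. The labels name a strand-marking kit.

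From these counts, filterByExpr (minimum count 10, minimum total 15) left 14742 genes, including all 80 members. Groups from the sample labels were fitted together with edgeR 4.0.16 (R 4.3.3; TMM, 1 mean per group, robust quasi-likelihood F test, 8 residual degrees of freedom). Benjamini-Hochberg adjustment ran over all 14742 genes, with calls at an adjusted p below 0.1; standard errors come from the F statistic. List levels use log2 CPM with a prior count of 2. The study names DESeq2; DESeq2 1.42.0 was an alternative, as were its size factors, no filter, an adjusted p below 0.05, the compared mice alone, a replicate block and each mouse left out. Replicate pairs differed by more than counting noise (chi-square per gene 3.45 to 7.53), so none was counted once. The common biological coefficient of variation was 7.25%. The procedure was tested on simulated data. Exon lengths, gene models and shared 50-base words come from GENCODE M21, promoters from RefSeq. Protein sequences were not used here.

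The members and lists were chosen with earlier results of these data known. Named genes are called members (up to 25 per comparison by p), the highest member of each class, the smallest p in classes without a call, a fixed set of canonical chaperones, members next to the count limit, and called genes of the lists; other genes were named after their values were seen.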

Additional observations from a re-analysis of the deposited data

Results flagged for a closer look

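The difference between the 2 diet effects was past the threshold for Dnajb2: acetate against control diet was 0.51 higher on the log2 scale in mice given tau than in those given PBS (SE 0.11, edgeR adjusted p = 0.056). The 3 Tau acetate mice were above the 3 Tau control mice, while the PBS-injected groups overlapped. It was the 1 call among 80 members (1.25%), near the 1.11% of all genes called in that direction. Over the settings that left out 1 mouse the difference was 0.45 to 0.62, with adjusted p between 0.0141 and 0.173 by edgeR. The call was kept in 7 of these 12 fits, and was absent at an adjusted p below 0.05 with all mice.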

How the results depend on the processing

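In PBS-injected mice, 13 members were called. The count was 7 without the filter on low counts (5.67% of all genes called) and 7 at an adjusted p below 0.05 (3.67%). In both, Cct6a, Dnaja4, Dnajb2, Dnajc3, Hspa4 and Hspa5 were lost. It was 13 with DESeq2's size factors (8.91%), with DESeq2 (5.49%) and with the compared mice alone (10.6%). Each share given for DESeq2 itself is over all 24985 genes in the table, 5357 of them without a count. Such shares are lower than over tested genes alone. With the compared mice alone the 13 were not the same, as Dnajb2 and Hspa4 were lost and Hspa1a and Hspa4l gained. Leaving out 1 mouse gave 0 to 14, the 0 being without PBS acetate mouse 2, where 0.101% of all genes were called, and the 14 without Tau control mouse 2, where 9.55% were. In tau-injected mice 0 members were called by edgeR (0.0611% of all genes) and 1 of 60 tested (Dnajc6) by DESeq2 (0.7%). For the difference between the diet effects, 1 member was called (1.56%). This was 2 without the filter (1.36%) and 2 with DESeq2 (1.74%, Bag3 besides Dnajb2), and 0 at an adjusted p below 0.05 (0.292%). With 1 mouse left out it was 0 to 2, with 0.0536% to 2.96% of all genes called. Where an alternative changed a count, the cause was not tested.

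The replicate number was tried as a block. Deviations of mice with the same number correlated between -0.105 and 0.144, so the numbers were not taken as pairs. With the block, 10 members were called in PBS-injected mice (8.3% of all genes) and 1 for the difference between the diet effects (2.37%). For genes such as Hspb3 and Hspb1, near the filter, counting noise limits what 3 mice per group can show.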
